A study of Mus musculus with 15 samples.

Results

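Medullary thymic epithelial cells (mTEC) were compared with colon epithelial cells, gene by gene, to describe which gut programmes mTEC carry, at what level relative to the colon, and which are missing. The comparison takes 3 mTEC and 3 colon libraries of the 15 polyA RNA libraries of the series, chosen by their sample titles. All libraries came from male C57BL/6J mice of 8 weeks with no treatment given, and each library was made from epithelial cells sorted by flow cytometry and pooled from 5 mice. The series also holds 3 libraries each of cortical thymic epithelium (cTEC), skin and lung, and it was designed around MHC class I levels in these epithelia. Library kits differed: KAPA RNA HyperPrep PolyA served for colon and lung, and KAPA RNA Stranded PolyA for mTEC, cTEC and skin. Tissue and kit therefore cannot be told apart in any difference between mTEC and colon, whereas mTEC and cTEC share both organ and kit. Nothing in the labels says how the sorting gates were set, and a pool of 5 mice hides the spread between animals.

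The thymic medulla presents proteins of peripheral tissues to developing T cells. Its epithelial cells transcribe many tissue-restricted genes, partly through the transcriptional regulator Aire, and some of them take on much of the appearance of a peripheral cell type, such as a tuft cell, a microfold (M) cell, an endocrine cell or an enterocyte. Such cells are known as mimetic cells. Colon epithelium is made mostly of absorptive colonocytes and mucus-secreting goblet cells, with rarer enteroendocrine and tuft cells, all renewed from crypt stem cells. Paneth cells, which secrete antimicrobial proteins, belong to the small intestine, and M cells sit over lymphoid follicles.

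The labels were checked against Aire, Muc2 and Cdx1. Aire read 613, 242 and 587 CPM in mTEC libraries 1, 2 and 3 and 0.268, 0.0666 and 0.223 CPM in the colon libraries. Muc2, the gel-forming mucin of goblet cells, read 6.48, 2.34 and 3.94 CPM in mTEC libraries 1, 2 and 3 and 6613, 7896 and 7542 CPM in the colon libraries. Cdx1, an intestinal homeobox factor, read 99.8, 50.3 and 106 CPM in mTEC libraries 1, 2 and 3 and 288, 303 and 265 CPM in the colon libraries, so that the third marker is also a gene of mTEC. No library went against its label. Reads in genes ran from 15696678 to 18538657 in mTEC and from 24223316 to 32410992 in colon. The correlation of log2 CPM ran from 0.983 to 0.987 among mTEC libraries, from 0.993 to 0.996 among colon libraries and from 0.736 to 0.756 between the groups.

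The mTEC libraries were not alike in these genes. Of the 296 distinct genes in the 11 gut lists, mTEC library 1 was the highest of the 3 in 182 and mTEC library 2 the lowest in 215, whereas over all genes tested library 1 was the highest in 35.6% and library 2 the lowest in 41.0%. Aire followed the same order, with its lowest value in library 2. The summed level of 16 T cell genes was 119, 59.7 and 81.7 CPM in mTEC libraries 1, 2 and 3, and that of 14 myeloid genes was 217, 107 and 189.6 CPM. The part of these differences in the gut values was not tested.

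Across the genome, 7060 of 19107 genes tested (36.9%) were higher in mTEC than in colon and 5559 (29.1%) were lower. All levels are read counts per library size (CPM) scaled with TMM factors, each call is an adjusted p under 0.05 in edgeR's quasi-likelihood test, and errors are the SD over 3 libraries for levels and the SE for log2 fold changes. The median log2 fold change over all genes was 0.18, and it became 0.40 with upper-quartile scaling and 0.29 with DESeq2 size factors, so all fold changes carry a shift of that size. The split of calls moved with it, from 55.9% higher in mTEC to 63.6% with upper-quartile scaling. In bulk libraries, fewer cells of a type and less RNA per cell cannot be told apart.

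The largest differences were ranked among called genes with at least 10 CPM in the higher group, at least 10 reads in the other and no overlap. Genes with fewer reads in the lower group, such as Msln, Insl5 and Mptx1, therefore do not enter. Genes with a clone, predicted or pseudogene name were left out as well. Krt5, a keratin of basal epithelial cells, read 3036, 4264 and 3952 CPM in mTEC libraries 1, 2 and 3 and 0.134, 0.4 and 0.134 CPM in the colon libraries. Krt17, another keratin of stratified epithelium, the chemokine gene Ccl21a, Aire and Actn3, a muscle actinin, were also among the 8 largest positive differences under these limits. The 8 largest negative differences under them were Sval1, Muc2, Acsm3, Agr2, Akr1c14, Hao2, Car1 and Dmbt1, genes of goblet cells and colonocytes among them. Dmbt1, a secreted scavenger protein of gut mucosa, read 15, 4.18 and 8.93 CPM in mTEC libraries 1, 2 and 3 and 6843, 3435 and 4698 CPM in the colon libraries. For each of these genes the mTEC and colon libraries did not overlap, which the choice of genes required.

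**Figure D1:**
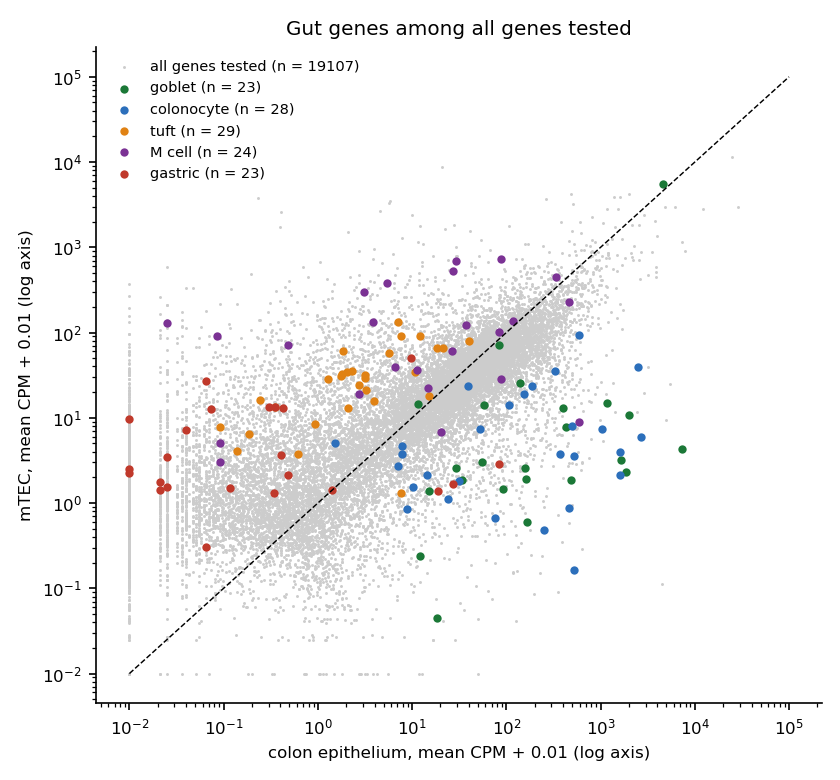
Mean CPM (plus 0.01) in mTEC against colon epithelium on log axes, with 1 grey point for each of the 19107 genes tested and coloured points for the tested members of 5 gut lists; the dashed line marks equal levels. Goblet and colonocyte genes lie mostly below the line, and tuft, M cell and gastric genes mostly above it.

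The 11 gut lists differed widely in the level that mTEC held relative to the colon. For members with at least 1 CPM in colon, the median mTEC level was 1.80% of the colon level for goblet genes, 5.01% for brush border genes, 6.12% for intestinal lineage factors, 7.67% for colonocyte genes, 22.4% for enteroendocrine genes, 35.2% for stem and crypt genes, 40.0% for Paneth and antimicrobial genes, 47.1% for small intestinal enterocyte genes, 324% for M cell genes and 893% for tuft genes. The median over all genes at that level in colon was 79.9%. The limit of 1 CPM leaves out genes that only mTEC expressed, 18 of the 23 gastric genes among them, so these medians do not cover them. Of the 283 distinct gut genes tested, 95 were higher in mTEC than in colon, a share near the background of 36.9%, 144 were lower (background 29.1%) and 44 were not called.

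**Figure D2:**
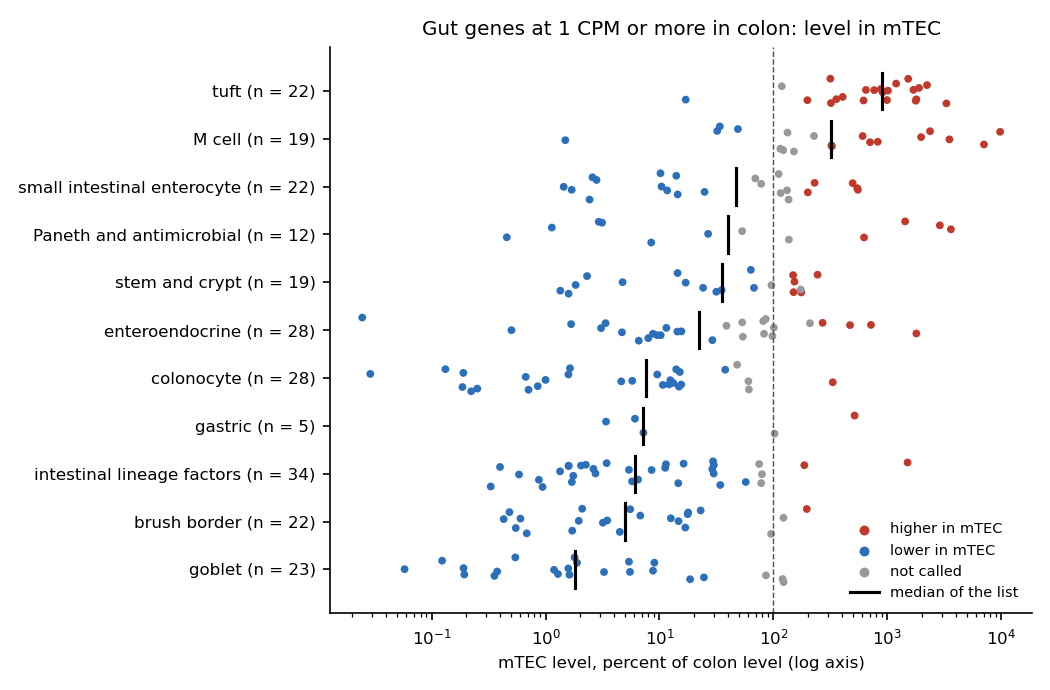
Level in mTEC as a percent of the colon level (log axis) for each gut gene with at least 1 CPM in colon, by list, coloured by the call of mTEC against colon; the bar is the median of the list and the dashed line marks 100%. Tuft and M cell medians lie at 893% and 324%, and the goblet median lies at 1.80%.

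Most goblet cell genes stood at or below a few percent of the colon level in mTEC, with Fcgbp as a large exception. None of the 23 members tested was higher than in colon in edgeR (background 36.9% of all genes; 0 at an unadjusted p under 0.05 and 0 in DESeq2) and 20 were lower (background 29.1%), with a median log2 fold change of -5.79 against 0.18 over all genes. Muc2, given above, stood at 0.0579% of the colon level (log2 fold change -10.75 ± 0.63, edgeR adjusted p = 3.7e-09). Agr2, the disulfide isomerase that folds mucins, read 3.06, 1.45 and 2.43 CPM in mTEC libraries 1, 2 and 3 and 1686, 2226 and 1703 CPM in the colon libraries, or 0.124%. Zg16, a lectin of the mucus layer, read 4.67, 1.45 and 3.55 CPM in mTEC libraries 1, 2 and 3 and 860.2, 2533 and 1599 CPM in the colon libraries, or 0.194%. For each of these genes the lowest colon value was far above the highest mTEC value. Clca1, a mucus-processing protease, stood at 0.543% of colon, Spink4 at 0.376% and Tff3, a trefoil peptide secreted with mucin, at 1.8%. Among the factors of the lineage, Atoh1, which commits cells to secretory fates, read 0.0502, 0.0558 and 0 CPM in mTEC and 15.3, 20.8 and 19.5 CPM in colon, and Spdef, which drives goblet maturation, stood at 5.51%.

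Fcgbp encodes a large protein that is secreted with mucin and bound into the mucus. Its gene read 5119.7, 4246 and 7072 CPM in mTEC libraries 1, 2 and 3 and 2923, 6242 and 4469.6 CPM in the colon libraries, and the groups overlapped (log2 fold change 0.27 ± 0.39, edgeR adjusted p = 0.563). Per length, Fcgbp stood at 3863 ± 1052 TPM in mTEC, where Muc2 stood at 3.74 ± 1.84 TPM, and at 1288 ± 485 TPM in colon, where Muc2 stood at 5201 ± 693 TPM. TPM are not scaled with TMM factors and serve here to compare genes within a group. Fcgbp was also found in cTEC (1264 ± 5.98 CPM) and skin (1210.4 ± 672 CPM), and it was higher in mTEC than in cTEC (log2 fold change 2.12 ± 0.41, edgeR adjusted p = 0.00248). Ang4, an antimicrobial ribonuclease with near-identical copies that make its count uncertain, read 17.9, 8.31 and 16.8 CPM in mTEC libraries 1, 2 and 3 and 12.9, 8.96 and 13.1 CPM in the colon libraries, also with overlap. Tmed3, a carrier of the secretory pathway, was the third member that was not called, at 86% of colon.

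At these low levels goblet genes still differed within the thymus. Of the 23 members tested, 14 were higher in mTEC than in cTEC (background 15.2% of all genes) and none was lower in edgeR (background 9.45%). In this and the other lists without a lower call against cTEC, edgeR had 0 lower members at an unadjusted p under 0.05 and DESeq2 called 0. Tff3 stood at 7.72 ± 3.41 CPM in mTEC and 1.13 ± 0.0913 CPM in cTEC (log2 fold change 2.78 ± 0.42, edgeR adjusted p = 0.000764), and Zg16 at 3.22 ± 1.64 and 0.347 ± 0.0751 CPM (log2 fold change 3.19 ± 0.56, edgeR adjusted p = 0.00188). In mTEC libraries 1, 2 and 3, Tff3 read 11, 4.24 and 7.89 CPM, lowest in library 2.

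Colonocyte genes showed a wider range. Of 28 members tested, 24 were lower in mTEC than in colon (background 29.1%) and 1 was higher (background 36.9%), with a median log2 fold change of -3.74. Car1, the carbonic anhydrase of the colon surface, read 3.01, 1.78 and 1.6 CPM in mTEC libraries 1, 2 and 3 and 2642, 539.8 and 1660.1 CPM in the colon libraries, or 0.132%. Slc26a3, the chloride and bicarbonate exchanger, read 0.804, 0.223 and 0.39 CPM in mTEC libraries 1, 2 and 3 and 245, 143 and 372 CPM in the colon libraries, or 0.186%. Guca2a, which encodes guanylin, stood at 0.19% and Cyp2c55, a cytochrome of the colon, at 0.0289%. These 4 genes are products of mature colonocytes, and each stood under 1% of colon.

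Other colonocyte genes stood higher relative to colon. Krt20, the keratin of differentiated gut epithelium, read 31.7, 14.2 and 24.4 CPM in mTEC libraries 1, 2 and 3 and 201, 125 and 238 CPM in the colon libraries, or 12.5% (log2 fold change -3.00 ± 0.42, edgeR adjusted p = 2.07e-05), and was higher than in cTEC (log2 fold change 2.91 ± 0.44, edgeR adjusted p = 0.000491). Mep1a, a brush border protease, stood at 12.1%, Slc37a2, a sugar phosphate transporter, at 13.2% and Aqp8, a water channel, at 4.62%. Slc51a, a subunit of the bile acid exporter, read 5.73, 2.68 and 5.59 CPM in mTEC libraries 1, 2 and 3 and 12.7, 2.6 and 7.93 CPM in the colon libraries, with overlap and no call (log2 fold change -0.72 ± 0.58, edgeR adjusted p = 0.292). The 1 member that was higher was Scnn1g, a subunit of the epithelial sodium channel, at 5.05 ± 0.507 CPM against 1.52 ± 1.01 CPM (log2 fold change 1.70 ± 0.35, edgeR adjusted p = 0.000679), and it was higher still in cTEC, at 14.5 ± 1.85 CPM. Of the 28 members, 9 were higher in mTEC than in cTEC (background 15.2%) and 1 was lower (background 9.45%).

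Genes of the brush border, the microvillus surface of absorptive cells, had a median level in mTEC of 5.01% of colon. Of 22 members tested, 19 were lower than in colon (background 29.1%) and 1 was higher (background 36.9%), with a median log2 fold change of -4.32. Vil1, which bundles the actin of microvilli, read 20.4, 10.7 and 15.9 CPM in mTEC libraries 1, 2 and 3 and 813, 715 and 712 CPM in the colon libraries, or 2.1% (log2 fold change -5.57 ± 0.29, edgeR adjusted p = 1.15e-09). Cdh17, the intestinal cadherin, stood at 1.96%, Myo1a, a microvillus myosin, at 3.48%, and the protocadherin genes Cdhr2 and Cdhr5 at 5.54% and 6.79%. Lgals4, a galectin, stood at 0.684%. Espn, which bundles actin in the microvilli of sensory cells too, was higher in mTEC, reading 48, 42.7 and 67.1 CPM in mTEC libraries 1, 2 and 3 and 29.2, 19.3 and 31.7 CPM in the colon libraries (log2 fold change 0.98 ± 0.28, edgeR adjusted p = 0.00685). Against cTEC, 8 members were higher (background 15.2%) and 1 was lower (background 9.45%). With the replicate number as a block 3 were lower, beside 3167 of all genes (1806 without the block). Vil1 was among the higher ones, at 15.7 ± 4.87 CPM against 5.65 ± 1.68 CPM (log2 fold change 1.47 ± 0.25, edgeR adjusted p = 0.00124).

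Small intestinal enterocyte genes went both ways. Of 29 members tested, 9 were higher in mTEC than in colon, which is below the background of 36.9%. Another 11 were lower (background 29.1%) and 9 were not called. Of the apolipoprotein genes, which serve the packaging of dietary fat, Apoa1, Apoa4 and Apoc3 were higher and Apob was lower, at 11.7% of colon. Apoa4 read 70.5, 21.2 and 43.3 CPM in mTEC libraries 1, 2 and 3 and 0, 0.0666 and 0 CPM in the colon libraries. With 2 reads in colon its ratio was 1710-fold with a counting interval (95%, exact binomial) of 473 to 14124 (edgeR adjusted p = 3.71e-07). Apoa1 read 26.1, 8.92 and 20 CPM in mTEC libraries 1, 2 and 3 and 0.358, 0.499 and 0.267 CPM in the colon libraries (log2 fold change 5.57 ± 0.77, edgeR adjusted p = 1.87e-05). Fabp1, a fatty acid binding protein, read 5.37, 1.9 and 2.95 CPM in mTEC libraries 1, 2 and 3 and 0.0894, 0.0666 and 0.0446 CPM in the colon libraries (log2 fold change 5.56 ± 1.12, edgeR adjusted p = 0.000793). For these 3 genes all mTEC libraries lay above all colon libraries, with mTEC library 1 highest and library 2 lowest.

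The bile acid binding protein gene Fabp6, Tm4sf5, Mttp, Anpep and Enpep were the other members on the higher side, and Mttp lost its call without mTEC library 1 (adjusted p = 0.0602). Enpep, an aminopeptidase, stood at 13 ± 1.02 CPM in mTEC, 2.39 ± 0.926 CPM in colon and 144 ± 66.6 CPM in cTEC. The lower side held Fabp2, at 1.7% of colon, the disaccharidase gene Mgam, at 1.44%, and the glucose transporter gene Slc5a1, at 2.44%. Sis, which encodes sucrase-isomaltase, read 5.73, 1.56 and 1.91 CPM in mTEC libraries 1, 2 and 3 and 2.24, 1.66 and 2.85 CPM in the colon libraries, with overlap, and Alpi, the intestinal alkaline phosphatase gene, read 6.83, 1.67 and 4.51 CPM in mTEC libraries 1, 2 and 3 and 5.5, 1.83 and 4.37 CPM in the colon libraries, also with overlap. Lct, the lactase gene, stood at 1.01 ± 0.264 CPM in mTEC and 0.279 ± 0.118 CPM in colon without a call (log2 fold change 1.86 ± 0.98, edgeR adjusted p = 0.106), and it was called when only the groups compared were fitted (adjusted p = 0.00363). Against cTEC, 11 members were higher (background 15.2%) and 2, Ada and Enpep, were lower, a share below the background of 9.45%. The higher count was 6 without mTEC library 1 and 7 without cTEC library 2.

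**Figure D3:**
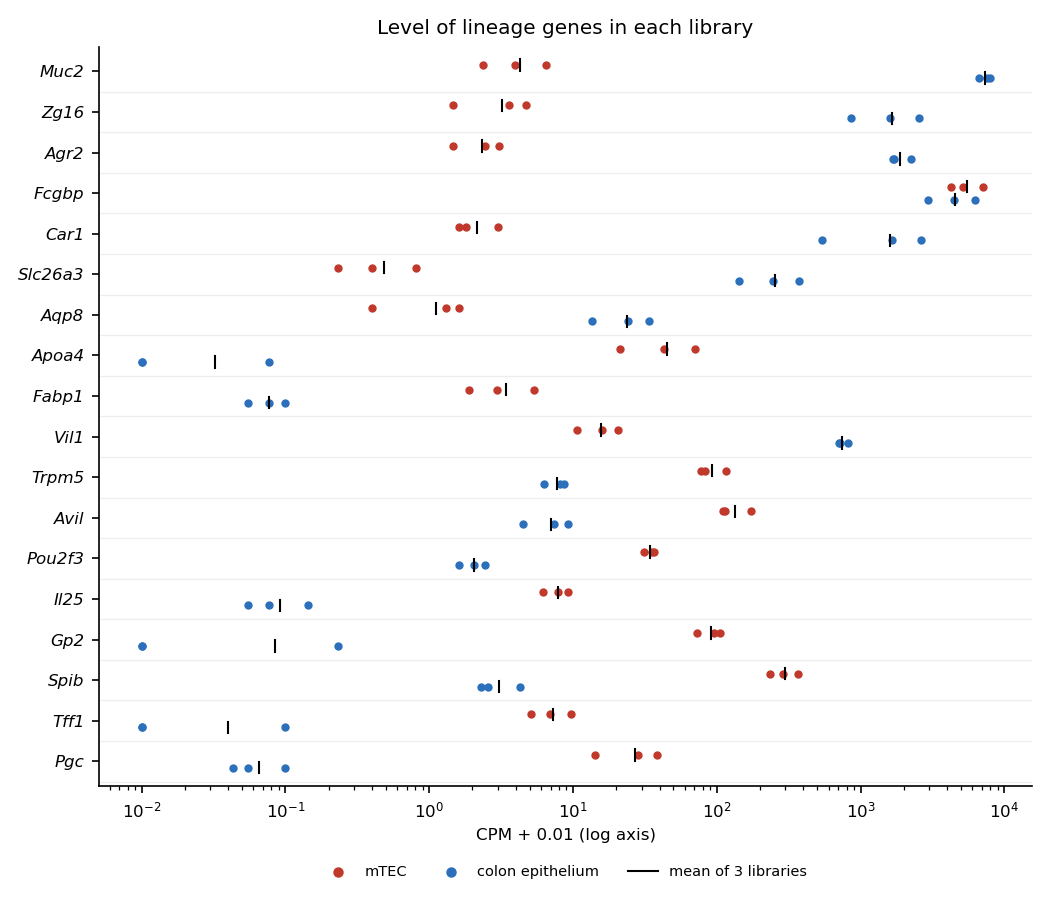
CPM plus 0.01 (log axis) of 18 lineage genes in each of the 3 mTEC (red) and 3 colon (blue) libraries, with the mean as a bar. Goblet and colonocyte genes other than Fcgbp lie far to the right in colon, and tuft, M cell and gastric genes lie to the right in mTEC.

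Tuft cells are chemosensory cells that signal through taste receptor components and release interleukin 25, and their programme was higher in mTEC than in colon almost throughout. Of 29 members tested, 27 were higher (background 36.9%) and 1 was lower (background 29.1%), with a median log2 fold change of 3.31. Pou2f3, the factor that specifies tuft cells, read 36.8, 31 and 35.6 CPM in mTEC libraries 1, 2 and 3 and 1.61, 2.43 and 2.05 CPM in the colon libraries (log2 fold change 4.07 ± 0.35, edgeR adjusted p = 1.71e-07). Trpm5, the cation channel of taste transduction, read 82.3, 78.1 and 116 CPM in mTEC libraries 1, 2 and 3 and 6.3, 8.12 and 8.69 CPM in the colon libraries, or 1195% of colon (log2 fold change 3.58 ± 0.46, edgeR adjusted p = 9e-06). Avil, which encodes advillin, an actin regulator of tuft cells, read 111, 113 and 174 CPM in mTEC libraries 1, 2 and 3 and 4.47, 7.36 and 9.18 CPM in the colon libraries (log2 fold change 4.25 ± 0.50, edgeR adjusted p = 3.93e-06). All mTEC values lay above all colon values for these 3 genes.

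The rest of the chemosensory chain stood in the same order. Gnat3 and Gng13, G protein subunits of taste signalling, stood at 13.4 ± 1.28 and 16.1 ± 3.9 CPM in mTEC and at 0.341 ± 0.102 and 0.234 ± 0.167 CPM in colon. Dclk1, a kinase used to mark tuft cells, read 81, 94.1 and 100.5 CPM in mTEC libraries 1, 2 and 3 and 10.3, 12 and 13.6 CPM in the colon libraries (log2 fold change 2.94 ± 0.58, edgeR adjusted p = 0.00046). Il25 read 6.23, 7.92 and 9.27 CPM in mTEC libraries 1, 2 and 3 and 0.0447, 0.0666 and 0.134 CPM in the colon libraries (log2 fold change 6.50 ± 0.98, edgeR adjusted p = 4.34e-05). Of the eicosanoid genes, Alox5 stood at 3301% of colon, Alox5ap at 1798% and Ptgs1 at 878%, whereas Hpgds, the prostaglandin D synthase gene, read 19.5, 17.2 and 16.9 CPM in mTEC libraries 1, 2 and 3 and 12.8, 18.4 and 14 CPM in the colon libraries and was not called (log2 fold change 0.24 ± 0.31, edgeR adjusted p = 0.511). Ascl2, a factor of crypt stem cells as well, was the 1 lower member, at 17% of colon. Lrmp was called higher (log2 fold change 0.99 ± 0.40, edgeR adjusted p = 0.0397) and lost the call without any 1 of the 6 libraries (adjusted p from 0.0532 to 0.14) or on the estimated counts (0.0507).

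The number of tuft genes that differed within the thymus depended on the fit. In edgeR 2 members, Pou2f3 and Rgs2, were higher in mTEC than in cTEC, below the background of 15.2%, and none was lower (background 9.45%). Pou2f3 (edgeR adjusted p = 0.0464) lost its call without any 1 mTEC library and without cTEC library 2 or 3. Rgs2 lost its call without mTEC library 2 (edgeR adjusted p = 0.0508). With the replicate number as a block 9 members were higher, beside 3924 of all genes (2908 without the block). The count without the block ran from 0 to 7 when 1 library was left out (7 without cTEC library 1 and 0 without mTEC library 2). Trpm5 stood at 55.9 ± 33.5 CPM in cTEC and Avil at 76.8 ± 43.5 CPM. The cTEC libraries also held Aire at 44.2 ± 20.8 CPM, Krt5 at 1794 ± 577 CPM and Ccl21a at 849 ± 325 CPM. In mTEC these genes stood at 480 ± 207, 3751 ± 638 and 1741 ± 355 CPM, and only Aire was called higher than in cTEC. The part of mTEC in the cTEC values, here and in the other lists, was not tested. Pou2f3 was also found in skin, at 192 ± 76.1 CPM. Several listed genes, among them Vav1, Ptpn6, Fyb, Inpp5d and Alox5, are also expressed by leukocytes. The summed level of 16 T cell genes was 59.7 to 119 CPM in mTEC and 14.9 to 20.1 CPM in colon. Rag2 and Ptcra had no reads in colon, and 16 of the 16 were higher in mTEC (background 36.9% of all genes). The summed level of 14 myeloid genes was 107 to 217 CPM in mTEC and 7.99 to 14.1 CPM in colon. Flt3 had no reads in colon, and 10 of the 13 tested were higher in mTEC (background 36.9%). The part of T cell and myeloid genes in the tuft values was not tested.

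M cells take up particles from the gut lumen and pass them to lymphoid tissue. Of 24 members tested, 15 were higher in mTEC than in colon (background 36.9%), 4 were lower (background 29.1%) and 5 were not called. The median log2 fold change was 2.71. Gp2, the uptake receptor that marks mature M cells, read 95.7, 73 and 106 CPM in mTEC libraries 1, 2 and 3 and 0, 0 and 0.223 CPM in the colon libraries (log2 fold change 10.29 ± 0.81, edgeR adjusted p = 6.98e-08). Spib, the factor required for M cells, read 289, 236 and 367 CPM in mTEC libraries 1, 2 and 3 and 2.55, 2.3 and 4.28 CPM in the colon libraries (log2 fold change 6.62 ± 0.53, edgeR adjusted p = 7.51e-08). Sox8, another factor of M cell maturation, read 5.07, 3.01 and 6.89 CPM in mTEC libraries 1, 2 and 3 and 0, 0.2 and 0.0446 CPM in the colon libraries (log2 fold change 5.72 ± 1.22, edgeR adjusted p = 0.000863). Colon values of Gp2 and Sox8 rest on few reads, and their fold changes grew by more than 1 on the log2 scale when all libraries were thinned to equal depth.

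Of the other M cell genes, Msln read 130.1, 102 and 154 CPM in mTEC libraries 1, 2 and 3 and 0, 0 and 0.0446 CPM in the colon libraries, Tnfaip2 stood at 134 ± 32.2 CPM in mTEC and 3.83 ± 1.79 CPM in colon, and Ccl20, a chemokine that attracts B cells and dendritic cells, stood at 19.1 ± 7.2 and 2.7 ± 0.837 CPM. Tnfrsf11a, the RANK receptor, whose signalling promotes both M cells and mTEC, read 151, 122 and 133 CPM in mTEC libraries 1, 2 and 3 and 126, 113 and 113 CPM in the colon libraries and was not called (log2 fold change 0.21 ± 0.22, edgeR adjusted p = 0.422). Ccl9, Ctsh, Serpinb1a and Gjb2 were not called either. Gjb2 was called higher when only the groups compared were fitted (edgeR adjusted p = 0.00336), and Ctsh without mTEC library 2 (edgeR adjusted p = 0.0463). Ccl6 was lower, at 1.49% of colon, and so were Pglyrp1 at 32.1%, Serpinb6a at 48.9% and Esrrg at 33.9%, whose call was lost with upper-quartile scaling and without mTEC library 2 or 3 or any 1 colon library (adjusted p from 0.0502 to 0.101). Against cTEC, 13 members were higher (background 15.2%) and none was lower (background 9.45%). With the replicate number as a block 1 was lower, beside 3167 of all genes (1806 without the block). Spib stood at 50.5 ± 17.2 CPM in cTEC (log2 fold change 2.56 ± 0.43, edgeR adjusted p = 0.000953) and Msln at 22.9 ± 11.3 CPM (log2 fold change 2.49 ± 0.38, edgeR adjusted p = 0.00049). Gp2 stood at 26.3 ± 17.4 CPM in cTEC (log2 fold change 1.79 ± 0.48, edgeR adjusted p = 0.0152), a call that was lost in DESeq2 and without mTEC library 1, mTEC library 3, cTEC library 2 or cTEC library 3. Myeloid cells express Rac2, Aif1 and Spib too, and the myeloid sums given above stood beside these values; their part was not tested.

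Enteroendocrine genes were mixed, from members without a call to members far below or above the colon level. Of 34 members tested, 7 were higher in mTEC than in colon, below the background of 36.9%. Another 16 were lower, above the background of 29.1%, and 11 were not called. Chga, the granule protein chromogranin A, read 97.9, 237 and 217 CPM in mTEC libraries 1, 2 and 3 and 131, 255 and 292 CPM in the colon libraries, with overlap (log2 fold change -0.30 ± 0.44, edgeR adjusted p = 0.569). Scg2, another granin gene, stood at 82.8% of colon and Syp, which encodes synaptophysin, at 98.2%, both without a call. Chgb, chromogranin B, read 10.4, 9.15 and 8.75 CPM in mTEC libraries 1, 2 and 3 and 358, 653 and 675 CPM in the colon libraries, or 1.68% (log2 fold change -5.90 ± 0.42, edgeR adjusted p = 9.42e-08), and the libraries did not overlap.

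Factors of the lineage were also mixed. Neurog3, which starts endocrine differentiation, read 0.753, 0.781 and 1.08 CPM in mTEC libraries 1, 2 and 3 and 0.805, 1.86 and 2.18 CPM in the colon libraries and was not called (log2 fold change -0.88 ± 0.60, edgeR adjusted p = 0.224). It had no reads in cTEC. Insm1, an endocrine zinc finger factor, read 81.3, 48.8 and 85.7 CPM in mTEC libraries 1, 2 and 3 and 5.41, 12.5 and 12.1 CPM in the colon libraries, or 719% of colon (log2 fold change 2.84 ± 0.44, edgeR adjusted p = 6.27e-05). Isl1, a LIM homeobox factor, stood at 1798% of colon and was lower than in cTEC, at 60.4 ± 13.9 against 126 ± 19 CPM, a call lost without cTEC library 2, mTEC library 1 or mTEC library 3. Neurod1, a later endocrine factor, stood at 3.37% of colon and Nkx2-2 at 4.69%.

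Among the hormones, Insl5, made by L cells of the distal gut, had the lowest share of the colon level. It read 0.0502, 0 and 0.0433 CPM in mTEC libraries 1, 2 and 3 and 66.1, 177 and 137 CPM in the colon libraries, or 0.0246% of colon. With 2 reads in mTEC the ratio of colon to mTEC was 4019-fold, with a counting interval of 1112 to 33192 (edgeR adjusted p = 3.44e-09). It was lower than in cTEC as well, where it stood at 0.459 ± 0.0867 CPM (edgeR adjusted p = 0.00856). Gcg, the proglucagon gene, read 8.54, 3.35 and 4.94 CPM in mTEC libraries 1, 2 and 3 and 138, 232 and 178 CPM in the colon libraries, or 3.07%. Pyy, the peptide YY gene, stood at 10.2% and Tph1, the enzyme of serotonin synthesis, at 9.57%. Sst, Tac1 and Sct, which encode somatostatin, substance P and secretin, stood at 53.2%, 85.8% and 101% of colon with overlapping libraries and no call.

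Of the other hormone genes, Gip, Gal, Cck, Ppy and Ghrl were called higher in mTEC, and Nts and Vip were not called. When only the groups compared were fitted, Nts and Vip were called higher (edgeR adjusted p = 0.0142 and 0.00362). Gip, the gastric inhibitory polypeptide gene of the proximal small intestine, read 7.68, 2.9 and 5.63 CPM in mTEC and had no reads in colon, which makes it at least 135-fold higher with a floor of 3 reads over the 3 colon libraries (edgeR adjusted p = 3.22e-05). Gal, the galanin gene, stood at 9.08 ± 3.44 CPM against 0.0966 ± 0.0341 CPM (log2 fold change 6.50 ± 1.15, edgeR adjusted p = 0.000189). Cck, the cholecystokinin gene, read 7.53, 6.75 and 6.72 CPM in mTEC libraries 1, 2 and 3 and 2.5, 3.16 and 2.09 CPM in the colon libraries (log2 fold change 1.43 ± 0.47, edgeR adjusted p = 0.0155), a call lost without colon library 1 (adjusted p = 0.0515) or colon library 3 (0.0643). Ppy and Ghrl lost their calls without mTEC library 1 or 3, among others, and on unstranded counts Ghrl had a log2 fold change of -0.12 (adjusted p = 0.896). Without colon library 1, 4 members in all were higher. Against cTEC, 19 members were higher (background 15.2%) and 3 were lower, a share near the background of 9.45%, and 12 were higher without mTEC library 1.

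**Figure D4:**
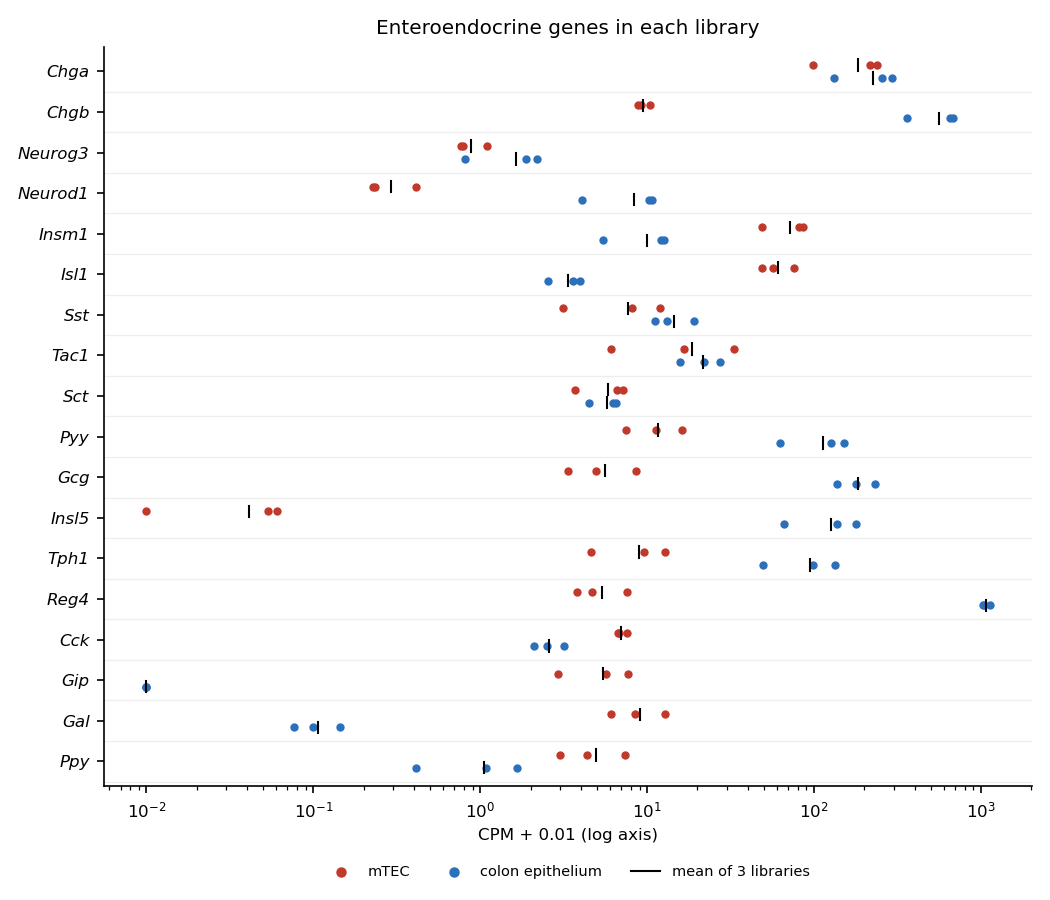
CPM plus 0.01 (log axis) of 18 enteroendocrine genes in each of the 3 mTEC (red) and 3 colon (blue) libraries, with the mean as a bar. The groups overlap for Chga, Sst, Tac1 and Sct, colon lies far to the right for Insl5, Reg4, Chgb and Gcg, and mTEC lie to the right for Insm1, Isl1, Gal and Gip.

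Paneth and antimicrobial genes also went both ways. Of 16 members tested, 8 were higher in mTEC than in colon (background 36.9%) and 6 were lower (background 29.1%). Lyz1, the lysozyme of Paneth cells, read 77.4, 26.2 and 52.1 CPM in mTEC libraries 1, 2 and 3 and 1.43, 1.23 and 2.72 CPM in the colon libraries (log2 fold change 4.86 ± 0.58, edgeR adjusted p = 4.24e-06). Reg3g, a bactericidal lectin, read 249, 116 and 169.9 CPM in mTEC libraries 1, 2 and 3 and 8.54, 2.73 and 3.52 CPM in the colon libraries (log2 fold change 5.19 ± 0.82, edgeR adjusted p = 7e-05). Itln1, which encodes intelectin, read 11.1, 5.13 and 8.97 CPM in mTEC libraries 1, 2 and 3 and 1.39, 1.9 and 0.757 CPM in the colon libraries (log2 fold change 2.63 ± 0.50, edgeR adjusted p = 0.000894). Mmp7, the protease that activates alpha defensins, stood at 6.36 ± 2.12 CPM against 0.597 ± 0.383 CPM (log2 fold change 3.38 ± 1.09, edgeR adjusted p = 0.0159), a call lost without colon library 1 (adjusted p = 0.0622) or colon library 3 (0.0575). Alpha defensin genes were low, with Defa24 at 1.04 ± 0.478 CPM in mTEC from 64 reads and 3 reads in colon, a call that DESeq2 did not make (adjusted p = 0.076). The other 5 listed defensin genes and the model Gm14851 had no reads in colon, and of these Defa21 stood at 0.917 ± 0.463 CPM in mTEC and Defa5 had no reads. Lyz1, the Reg genes and the defensins have close copies, so their counts are uncertain. On the lower side, Pigr, the receptor that carries immunoglobulin A into the lumen, read 37.1, 16.1 and 22 CPM in mTEC libraries 1, 2 and 3 and 6565, 4825 and 5056 CPM in the colon libraries, or 0.457% of colon, and Ccl28, a mucosal chemokine, stood at 1.14%. Against cTEC, 8 members were higher (background 15.2%) and none was lower (background 9.45%). The count of higher members was 4 without mTEC library 1. With the replicate number as a block it was 13, beside 3924 of all genes (2908 without the block).

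Stem and crypt genes were mixed. Of 21 members tested, 12 were lower in mTEC than in colon, above the background of 29.1%. On the other side 6 were higher, which is below the background of 36.9%. Lgr5, the receptor that marks crypt stem cells, read 0.653, 0.669 and 0.347 CPM in mTEC libraries 1, 2 and 3 and 33.4, 36.4 and 35 CPM in the colon libraries, or 1.59% (log2 fold change -5.98 ± 1.19, edgeR adjusted p = 0.000489). Slc12a2, a chloride cotransporter of the crypt base, stood at 4.75% and Aqp4, a water channel of the crypt, at 1.35%. Axin2, a general target of Wnt signalling, stood at 35.2%. Olfm4, a secreted crypt glycoprotein of the small intestine, read 65.4, 31.1 and 45 CPM in mTEC libraries 1, 2 and 3 and 0.268, 0.0999 and 0 CPM in the colon libraries (log2 fold change 8.54 ± 0.70, edgeR adjusted p = 1.07e-07). Olfm4 was higher than in cTEC, where it stood at 3.96 ± 2.06 CPM (log2 fold change 3.57 ± 0.51, edgeR adjusted p = 0.00033). Sox9 and Rnf43, which many epithelia express, were higher at 244% and 153%, and Smoc2 was called higher (log2 fold change 0.59 ± 0.25, edgeR adjusted p = 0.0496) but not on estimated or unstranded counts or without mTEC library 2, mTEC library 3 or any 1 colon library (adjusted p from 0.0542 to 0.289). Against cTEC, 3 members were higher, a share near the background of 15.2%, and 4 were lower (background 9.45%). With the replicate number as a block 5 were higher, beside 3924 of all genes (2908 without the block). Leaving out mTEC library 1 left 2 lower, and leaving out cTEC library 2 left 1 higher.

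Gastric genes were expressed in mTEC and mostly not in colon: 18 members were under 1 CPM in colon, and 17 of these were at 1 CPM or more in mTEC. Of 23 members tested, 18 were higher in mTEC than in colon (background 36.9%) and 3 were lower (background 29.1%). The median log2 fold change was 5.24, which was the same with the 3 members without colon reads at their bound. Pgc, the progastricsin gene, read 38.5, 14.2 and 28.1 CPM in mTEC libraries 1, 2 and 3 and 0.0894, 0.0333 and 0.0446 CPM in the colon libraries (log2 fold change 8.82 ± 0.58, edgeR adjusted p = 5.44e-08). Muc5ac, the mucin of surface mucous cells, read 23.3, 4.74 and 12 CPM in mTEC libraries 1, 2 and 3 and 0.0894, 0.533 and 0.401 CPM in the colon libraries (log2 fold change 5.24 ± 0.96, edgeR adjusted p = 0.000246). Tff1, the trefoil peptide secreted with it, read 9.69, 5.13 and 6.89 CPM in mTEC libraries 1, 2 and 3 and 0, 0 and 0.0891 CPM in the colon libraries. With 2 reads in colon its ratio was 273-fold, with a counting interval of 75.1 to 2259 (edgeR adjusted p = 0.000189). All mTEC values lay above all colon values, and mTEC library 2 was the lowest of the 3 for each.

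Parietal cell genes were among them. Atp4a, a subunit of the gastric proton pump, stood at 13.1 ± 6.03 CPM in mTEC against 0.415 ± 0.334 CPM in colon, and Atp4b, its partner, at 2.51 ± 0.802 CPM with no reads in colon, at least 62.7-fold higher with the same floor of 3 reads. Gkn2, a gastrokine gene, stood at 1.77 ± 0.838 CPM against 0.0111 ± 0.0192 CPM from 1 read, a ratio of 133 with a counting interval of 23.3 to 5289 (edgeR adjusted p = 0.000531). Tff2 was called higher (log2 fold change 3.17 ± 0.98, edgeR adjusted p = 0.0124) and lost the call without mTEC library 1 (adjusted p = 0.0515), and Muc6 (log2 fold change 2.17 ± 0.84, edgeR adjusted p = 0.0373) lost it on estimated or unstranded counts and without mTEC library 1, mTEC library 3 or any 1 colon library (adjusted p from 0.0777 to 0.197). Ctse, Capn8 and Vsig1, which the colon expressed too, were lower, at 3.39%, 6.1% and 7.23% of colon. Against cTEC, 17 members were higher (background 15.2%) and none was lower (background 9.45%). That count was 10 without mTEC library 1 or without cTEC library 2 and 11 without cTEC library 3. Pgc stood at 1.22 ± 0.447 CPM in cTEC (log2 fold change 4.45 ± 0.43, edgeR adjusted p = 4.38e-05).

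The transcription factors that set intestinal identity were mostly low in mTEC. Of 35 members tested, 29 were lower than in colon (background 29.1%) and 3 were higher (background 36.9%), with a median log2 fold change of -3.95. Hnf4a, a nuclear receptor that drives enterocyte genes, read 3.67, 1.45 and 2.25 CPM in mTEC libraries 1, 2 and 3 and 641, 639 and 569 CPM in the colon libraries, or 0.399% (log2 fold change -7.96 ± 0.34, edgeR adjusted p = 1.39e-09). Cdx2, the homeobox factor that sets intestinal fate, read 3.36, 1.56 and 2.43 CPM in mTEC libraries 1, 2 and 3 and 112, 68.7 and 86.9 CPM in the colon libraries, or 2.74% (log2 fold change -5.18 ± 0.41, edgeR adjusted p = 1.1e-06). Its relative Cdx1 stood at 29.9% of colon (log2 fold change -1.74 ± 0.31, edgeR adjusted p = 0.000189), from the values given above. Hnf4g, the relative of Hnf4a, stood at 14.6%.

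Factors of the hindgut were low as well. Hoxd13, Hoxb13 and Hoxa13, which mark the distal end of the gut, stood at 0.33%, 1.34% and 1.75% of colon. Isx, an intestinal homeobox factor, stood at 1.59%. Gata4, which is used by proximal intestine and stomach, was higher, reading 10, 2.57 and 6.46 CPM in mTEC libraries 1, 2 and 3 and 0.805, 0.366 and 0.178 CPM in the colon libraries (log2 fold change 3.81 ± 0.68, edgeR adjusted p = 0.000315). Maf stood at 1507% of colon and was higher still in cTEC, at 129 ± 14.3 CPM. Against cTEC, 14 factors were higher (background 15.2%) and 4 were lower, a share near the background of 9.45%, with 8 higher without mTEC library 1. Cdx1 stood at 17.1 ± 4.1 CPM in cTEC (log2 fold change 2.32 ± 0.32, edgeR adjusted p = 0.000231) and Cdx2 at 0.119 ± 0.104 CPM (log2 fold change 4.26 ± 0.56, edgeR adjusted p = 0.000637).

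A genome-wide view came from colon-restricted genes, defined as genes with at least 10 CPM in colon and at least 20 times the level of skin and of lung. The rule used colon, skin and lung libraries and no thymic library, and it found 369 genes, 86 of them in the gut lists. Trim36 and Fhl2 lay just inside the limit, at 20.2 and 20.3 times, and Slc40a1 and Scamp5 just outside, at 19.8 and 19.9 times. The median level in mTEC was 3.18% of the colon level, and the median in cTEC was 1.02%. mTEC held 271 of the 369 genes (73.4%) at 1% of colon or more and cTEC held 186 (50.4%). The cTEC libraries held Aire too, as given above, and the part of mTEC in their values was not tested. At 10% or more there were 84 genes in mTEC and 39 in cTEC, and 10 genes reached the colon level in mTEC. Since the rule chose genes for a high colon level, that they were lower in mTEC is not a result.

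Between mTEC and cTEC, which the rule did not use, 148 colon-restricted genes (40.1%) were higher in mTEC against a background of 15.2%. Another 8 were lower, a share below the background of 9.45%. The count of higher genes was 92 without mTEC library 1. Of those that were higher, Insm1, given above, stood at the largest share of colon, and others with large shares were 4930539E08Rik, Dio1, Rgs17, Serpinb1a, Ang4, Tac1, Epsti1, Sst, Ceacam10 and Cd177. Dio1, which activates thyroid hormone, read 117, 82 and 112 CPM in mTEC libraries 1, 2 and 3 and 49.4, 46.2 and 53.1 CPM in the colon libraries, or 209% of colon (log2 fold change 2.08 ± 0.33, edgeR adjusted p = 0.000685 against cTEC). Cd177, a surface glycoprotein better known from neutrophils, read 29.8, 31.8 and 45.9 CPM in mTEC libraries 1, 2 and 3 and 93, 114 and 124 CPM in the colon libraries, or 32.5%, against 3.85% in cTEC. The lower ones included Abat, the enzyme that breaks down GABA, at 2.95% of colon in mTEC and 41.1% in cTEC, and Insl5.

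**Figure D5:**
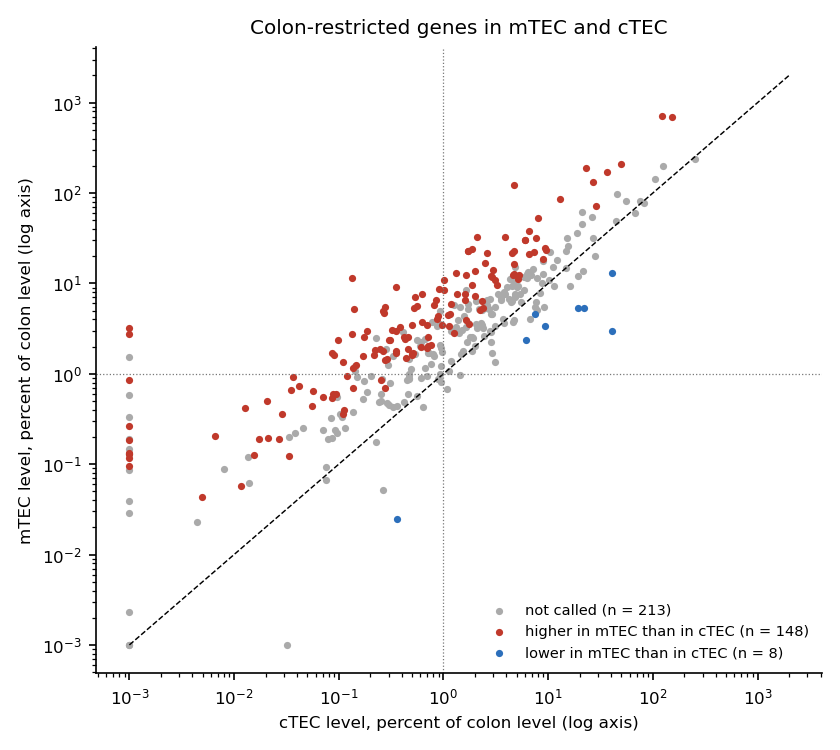
Level in mTEC against level in cTEC, each as a percent of the colon level (log axes), for the 369 colon-restricted genes, coloured by the call of mTEC against cTEC; genes without reads are drawn at 0.001% and dotted lines mark 1%. Most points lie above the dashed line of equal levels, and 148 are called higher in mTEC.

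The lower end holds the genes with the smallest share of the colon level, most of which still had reads in mTEC. In mTEC 17 colon-restricted genes stood under 0.1% of colon, with genes without reads counted as 0. A share this low needs either no reads in mTEC or a high colon level, so the cut favours genes of high colon level. Of the 369, 3 had no reads: the uncharacterised models Gm45912 and Gm8989 and the membrane protein gene Ms4a12. Mptx1, a mucosal pentraxin, read 0.251, 0.0558 and 0 CPM in mTEC libraries 1, 2 and 3 and 4031, 5632 and 3714 CPM in the colon libraries. Cyp2c55, Sval1, Acsm3, a fatty acid ligase, Clec2h, a lectin receptor, Muc2 and Insl5 were also under 0.1%. Muc2 had 262 reads in mTEC and was higher there than in cTEC (log2 fold change 2.32 ± 0.53, edgeR adjusted p = 0.0069). Sval1 was higher than in cTEC too (log2 fold change 2.80 ± 0.92, edgeR adjusted p = 0.0433), whereas Acsm3 was not called and Insl5 was lower. Members of the Cyp2c family share sequence, so their counts are uncertain.

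Promoter sequence was read for these genes because Hnf4a, a factor with known binding letters, stood at 0.399% of colon in mTEC. RefSeq windows of GRCm38.p6, from 250 bases before to 50 bases after each start, were found for 258 of the 369 genes. The letters CAAAGTCCA, typical of HNF4 sites, were in a window of 9 of the 258 genes (3.49%) and of 150 of all 27025 genes (0.555%), counting both strands. The letters TTTATG of CDX factors were in 13.6% of either. The letters were chosen after the values were seen, a match is a description of the sequence, and no test was made. Shown next, in the direction of each gene, are the 4 colon-restricted genes with the HNF4 letters and the highest colon level, with those letters in capitals on either strand.
Muc13: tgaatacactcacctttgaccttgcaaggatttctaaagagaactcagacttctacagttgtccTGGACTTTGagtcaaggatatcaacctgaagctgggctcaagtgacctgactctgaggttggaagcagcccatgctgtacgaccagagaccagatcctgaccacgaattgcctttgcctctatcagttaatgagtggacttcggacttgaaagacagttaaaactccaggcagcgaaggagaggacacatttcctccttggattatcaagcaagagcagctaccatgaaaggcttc
B3gnt3: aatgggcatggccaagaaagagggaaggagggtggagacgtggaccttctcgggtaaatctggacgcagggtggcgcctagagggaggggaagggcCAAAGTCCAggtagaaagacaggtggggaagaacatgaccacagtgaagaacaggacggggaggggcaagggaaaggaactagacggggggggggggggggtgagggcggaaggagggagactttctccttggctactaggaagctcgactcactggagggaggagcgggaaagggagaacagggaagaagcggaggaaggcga
Hsd3b3: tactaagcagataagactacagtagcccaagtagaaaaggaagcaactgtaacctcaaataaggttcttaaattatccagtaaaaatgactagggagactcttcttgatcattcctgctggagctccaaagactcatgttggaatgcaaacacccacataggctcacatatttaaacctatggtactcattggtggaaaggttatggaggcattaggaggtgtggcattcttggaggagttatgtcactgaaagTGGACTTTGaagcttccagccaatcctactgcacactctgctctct
Sult1b1: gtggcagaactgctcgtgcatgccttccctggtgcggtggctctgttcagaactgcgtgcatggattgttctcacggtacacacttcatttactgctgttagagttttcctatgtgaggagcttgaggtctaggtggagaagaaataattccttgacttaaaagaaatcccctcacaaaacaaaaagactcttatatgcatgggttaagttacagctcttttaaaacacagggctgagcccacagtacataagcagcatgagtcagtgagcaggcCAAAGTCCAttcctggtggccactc
The windows are chr16:33794239-33794538, + strand, for Muc13, chr8:71701751-71702050, - strand, for B3gnt3, chr3:98763079-98763378, - strand, for Hsd3b3, and chr5:87536173-87536472, - strand, for Sult1b1. Muc13, a membrane mucin, read 19, 7.7 and 8.67 CPM in mTEC libraries 1, 2 and 3 and 2708, 2365 and 2158 CPM in the colon libraries, or 0.489% of colon. B3gnt3, a glycosyltransferase of mucin-type glycans, stood at 7.69%. Hsd3b3, a steroid dehydrogenase, stood at 0.12% and Sult1b1, a sulfotransferase, at 0.441%. Of the 9 genes with these letters 5 stood under 1% of colon in mTEC, and of the 258 genes with a window 69 did.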

How the data were processed

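PolyA RNA of 15 libraries in 5 groups was sequenced, and 6 libraries enter the comparison of mTEC with colon. Per the submitters' processing notes, bcl2fastq 2.20, STAR 2.5.1b and RSEM 1.2.28 were used on GRCm38. The deposited values are read counts per gene, of which the sense column was used (18.2 to 19.3 times the opposite column in mTEC and colon), and the expected counts and TPM of RSEM as deposited by the authors. Reads outside genes were 26.4% to 36.1% and were left out. Which annotation release was counted is not stated in those notes. Symbols came from GENCODE M21, which matched 50376 of 50600 identifiers. Strand-specific counting separates antisense genes, and reads shared by near-identical genes may be missing from these counts.

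Counts were scaled with TMM factors and fitted in edgeR 4.0.16 (R 4.3.3) with 1 term per group over all 15 libraries, so that the groups share a spread (common BCV 28.1%). filterByExpr left 19107 genes. Quasi-likelihood F-tests were adjusted by Benjamini-Hochberg over all of them and called under 0.05, and the SE is the log2 fold change divided by the square root of F. Percent of colon is the ratio of mean CPM, with 3 reads over a group as the floor. The fit was tested on simulated data. DESeq2 1.42.0, RSEM estimates rounded to whole numbers, unstranded counts, thinned counts, other scalings and filters and leaving out each library were the alternatives. Counts of replicates differed beyond sampling noise (chi-square per degree of freedom 20.9 to 50.1). Each library is a pool, so p-values measure the spread between these pools, and intervals and floors cover counting error only.

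The correlation of deviations from the group means was 0.29, 0.40 and 0.27 for same-numbered mTEC and cTEC libraries, all over 0.1, so the replicate block was used beside that comparison. The backgrounds of 15.2% and 9.45% are those of the fit without the block (2908 higher and 1806 lower). With it 3924 were higher and 3167 lower. For mTEC and colon the correlation was -0.05, 0.15 and 0.10, of mixed sign, and those were compared without pairing. A correlation cannot say whether the pools shared mice. Members and lists (11 gut lists, thymic epithelium and 8 lists of other cells) were chosen with earlier results of these data known. Genes were named as defining members of each list, as up to 3 members per list and direction of smallest p, as the 8 largest differences in each direction (10 CPM or more in the higher group, 10 reads or more in the other, libraries apart) and as 12 colon-restricted genes. Clone, predicted and pseudogene names were left out of the largest differences. Other list members named in the text, Mptx1, Clec2h, Abat, Muc13, B3gnt3, Hsd3b3 and Sult1b1 were chosen after their values were seen. The summed CPM of the other lists, in mTEC and in colon, were 44.9 to 93.3 and 8.67 to 24.5 for B and plasma cells, 37.8 to 63.4 and 139 to 186 for mast cells, 153 to 169.8 and 203 to 465 for fibroblasts, 21.9 to 37.0 and 9.49 to 42.1 for endothelium, 30.0 to 37.5 and 11.3 to 17.7 for neurons and glia and 1136 to 1311 and 43.7 to 88.2 for smooth muscle. Of 24 thymic epithelial genes 16 were higher in mTEC than in colon (background 36.9%) and 5 were lower (background 29.1%). Some genes that these rules name are not reported here.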

Additional observations from a re-analysis of the deposited data

How the results depend on the processing

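Counts over all genes against colon stayed within 1.5 times of their value in the alternatives run, and so did 219 of 220 list counts against colon with all libraries kept. Without a filter on low counts, 13 Paneth and antimicrobial genes were higher than in colon and 13 were higher than in cTEC. With the replicate number as a block, 6898 genes were higher in mTEC than in colon and 5497 were lower, which changed no list against colon by over 1.5 times. Against cTEC, the block (mTEC and cTEC libraries only, an alternative added after seeing the data) gave 3 lower brush border genes, 9 higher tuft genes, 1 lower M cell gene, 13 higher Paneth and antimicrobial genes and 5 higher stem and crypt genes, and over all genes 3924 higher and 3167 lower, and moved no other list count by over 1.5 times. DESeq2 gave 2 lower brush border genes and 5 higher stem and crypt genes, and fitting only the groups compared gave 3 lower brush border genes. With colon-restricted genes taken at 10 times skin and lung, 135 stood at 10% or more of colon in mTEC and 72 in cTEC, and 14 were lower than in cTEC. At 50 times the numbers were 47 and 19 at 10% or more, 112 at 1% or more in cTEC and 3 lower. Leaving out 1 library gave against cTEC 0 to 7 higher tuft genes, 6 to 13 small intestinal enterocyte, 12 to 18 enteroendocrine, 4 to 9 Paneth and antimicrobial, 10 to 16 gastric and 8 to 14 lineage factor genes higher, 1 to 2 stem and crypt genes higher and 2 to 4 lower, and 92 to 193 colon-restricted genes higher. Against colon it gave 0 to 1 higher goblet gene (St6galnac1, which is too low for the test with all libraries, without colon library 3 or mTEC library 2) and 4 to 7 higher enteroendocrine genes. The 1 result that reversed was Ghrl on unstranded counts, with a log2 fold change of -0.12 and the cause was not tested. Where a group was left with 2 libraries the spread was shared with the other groups. Depth limits genes with few reads, for which 3 reads over a group amount to 0.0492 CPM in mTEC and 0.0401 CPM in colon.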
